A study of Mus musculus with 13 samples.

Results

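Blood vessels run through adipose tissue, and the cells that line them carry a small set of transcripts by which they are known. The transcripts followed here are those of 9 endothelial genes, Pecam1, Cdh5, Kdr, Flt1, Tek, Tie1, Emcn, Vwf and Eng, out of 19752 genes that could be named on the array. They were chosen as textbook markers of endothelium and found through the RefSeq name of each probe, which gave 10 of 55681 non-control probes, 2 of them for Kdr and 1 for each of the others. All 9 genes passed the filter on dim probes. By the probe used, each had a value well above background on all 12 arrays compared, apart from Kdr on 1 array. There its spot was left out as an outlier, as described below.

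White adipose tissue (WAT) and brown adipose tissue (BAT) came from male C57BL/6J mice. The arrays were of untreated wild-type WAT (3 arrays), WAT of Fv2E-PERK transgenic mice given vehicle (2) or AP20187 (3), and BAT of the same transgenic line given vehicle (2) or AP20187 (2). Fv2E-PERK joins the kinase domain of PERK, a sensor of endoplasmic reticulum stress, to a domain that the ligand AP20187 brings together. The ligand was given by intraperitoneal injection at 100 ng/g and tissue was taken after 12 h, per the labels' protocols, which speak of muscles where the tissue labels say fat. Wild-type mice are labelled untreated. Wild-type mice given AP20187 and wild-type BAT were not analysed here, so injection and transgene cannot be told apart, and neither can the ligand's own effect and that of the activated kinase. The transgene is named mAP::Fv2E-PERK in the series text, and the cells in which that promoter is active are not given in the sources used here. Separate animals are not named for the arrays of a group, and the p-values below therefore cover differences between arrays, which may be technical. Ages are not given in the sources used here. A 13th array, titled BAT but with WAT as its source, was left out of all groups.

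In background, vessels are held together and kept quiet by a few receptor systems. Kdr (VEGF receptor 2) is the main signalling receptor for VEGF-A, and Flt1 (VEGF receptor 1) binds the same ligand tightly and limits what reaches Kdr. Tek (Tie2) is the receptor for the angiopoietins, and Tie1 is its partner without a strong ligand of its own. Eng (endoglin) is a co-receptor for BMP and TGF-beta ligands, Pecam1 and Cdh5 (VE-cadherin) sit at the junctions between endothelial cells, Emcn (endomucin) is a sialomucin of capillary and venous surfaces, and Vwf (von Willebrand factor) is the clotting protein stored in endothelial granules. Brown fat is known for a dense capillary bed, while white fat is served by fewer capillaries per volume.

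The 4 receptor tyrosine kinases are shown by their promoters, because ETS factors, which bind a GGAA core, are known regulators of endothelial genes. Kdr and Flt1 are also compared between depots. On 1 WAT array described below, Flt1, Tek and Tie1 lay below all 5 vehicle and wild-type WAT arrays. So did all 8 members measured there and 29.7% of all features, so this was not a trait of these kinases. RefSeq's promoter table (build GRCm38.p6) held 6 of the 9 members, Kdr, Flt1, Tek, Tie1, Emcn and Eng. Each sequence runs from 250 bases before to 50 bases after the start used in that table, 5' to 3' on the gene's strand. Among the windows shown, that start differs from the start of the RefSeq gene span for Kdr, Flt1 and Tek. The spans of Kdr and Flt1, on the - strand, reach up to 75979072 and 147726438, so both windows lie inside them. The Tek span begins at 94739086, so most of its window lies inside it. Capitals mark GGAA or its reverse TTCC.
Kdr promoter, chr5:75978406-75978705, - strand: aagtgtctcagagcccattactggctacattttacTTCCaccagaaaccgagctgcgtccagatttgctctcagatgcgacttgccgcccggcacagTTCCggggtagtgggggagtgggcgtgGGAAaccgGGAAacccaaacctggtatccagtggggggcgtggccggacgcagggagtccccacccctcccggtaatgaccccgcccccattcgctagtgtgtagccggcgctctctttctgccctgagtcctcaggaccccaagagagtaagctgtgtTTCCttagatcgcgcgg
Flt1 promoter, chr5:147725962-147726261, - strand: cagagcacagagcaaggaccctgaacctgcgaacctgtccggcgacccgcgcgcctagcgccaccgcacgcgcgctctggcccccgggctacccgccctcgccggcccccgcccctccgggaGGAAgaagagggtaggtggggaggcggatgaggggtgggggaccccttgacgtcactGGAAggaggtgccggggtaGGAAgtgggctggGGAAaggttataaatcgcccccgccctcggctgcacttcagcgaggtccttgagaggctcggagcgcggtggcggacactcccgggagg
Tek promoter, chr4:94739039-94739338, + strand: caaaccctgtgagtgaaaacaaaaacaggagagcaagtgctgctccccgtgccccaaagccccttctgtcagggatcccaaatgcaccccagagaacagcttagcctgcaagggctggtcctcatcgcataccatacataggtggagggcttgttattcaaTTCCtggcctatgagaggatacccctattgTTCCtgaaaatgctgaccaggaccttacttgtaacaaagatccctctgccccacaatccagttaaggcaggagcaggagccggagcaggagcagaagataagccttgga
Tie1 promoter, chr4:118489800-118490099, - strand: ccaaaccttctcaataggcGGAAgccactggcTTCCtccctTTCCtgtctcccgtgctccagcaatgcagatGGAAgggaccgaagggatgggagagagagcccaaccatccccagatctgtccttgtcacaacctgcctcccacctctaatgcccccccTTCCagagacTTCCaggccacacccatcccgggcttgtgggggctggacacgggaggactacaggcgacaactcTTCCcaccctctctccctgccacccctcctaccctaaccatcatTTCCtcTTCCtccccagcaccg
The GGAA core occurred 9 times in the Tie1 window, 5 times in Kdr, 4 times in Flt1 and 2 times in Tek, counting both strands. In the windows not shown it occurred 6 times for Emcn and 4 times for Eng. Of 32851 promoters of the same length in the table, 96% held at least 1 match and the median was 3, and 99.4% held as many as Tie1 or fewer. The GC box GGGCGG occurred 3 times in Flt1 and 2 times in Kdr, and 35.7% of all promoters held it. The letters TATAAA were found once in Flt1 and in none of the other 3 windows, against 13.6% of all promoters. The motif AGATAA was found once in Tek, against 11.2%. These matches describe letters in a window, and no binding was measured.

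Levels below are on the log2 scale, with each array's own 75th percentile of processed spot signal subtracted, so 0 is the level below which 75% of the probes lie. Levels of different probes are not comparable with each other. A result is called where the adjusted p of limma's test, over all 24459 features tested, is under 0.05. Libraries differed before any group was compared. The 3 WAT AP20187 arrays had 49% to 51.5% of spots well above background, against 57.9% to 64% on the vehicle and wild-type WAT arrays, and 11.9%, 9.87% and 3.12% of their spots lay in areas of weak signal that no other array showed. WAT AP20187 array 1 stood apart in epididymal epithelium genes. The 7 of 9 that had a value on all arrays averaged 8.43 there, against 0.41 on array 2 and -5.62 to -4.08 on the other WAT arrays. Its 7 macrophage genes had a median of 2.49, against 3.22 to 4.08 on the other 7 WAT arrays, and 5 of the 7 were lowest there, with Csf1r at -0.97 the farthest from its other values. The 6 of 8 adipocyte genes with a value on all arrays averaged 7.49 there, and 7.46 to 8.45 on the other WAT arrays. The 7.46 was that of array 2, where Lpl measured 2.84, against 8.83 or more on every other WAT array. Adipoq, Cidec, Pparg and Pnpla2 were each lowest of the WAT arrays on array 1, while Plin1 and Lpl were not. Control arrays differed too. Crisp1, an epididymal gene without a value on AP20187 array 1, measured 6.68 on wild-type array 3 and -7.33 to -0.41 on the remaining WAT arrays. The 5 hepatocyte genes averaged 4.02 on WAT vehicle array 2 and -1.15 to 1.73 on the other WAT arrays. The 10 genes of mural cells averaged 3.21 on wild-type array 3 and 1.9 to 2.51 on the other WAT arrays. The part of these in the members' values was not tested. Ucp1, the uncoupling protein of brown fat, measured 9.87 to 10.63 on BAT arrays and -7.23 to -3.41 on WAT arrays, and Adipoq, an adipocyte hormone, measured 8.25 or more on all 12. Eif2ak3, the gene of PERK, lay between 0.89 and 1.4 on all arrays, and whether its probe lies in the part the transgene carries was not tested.

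**Figure D1:**
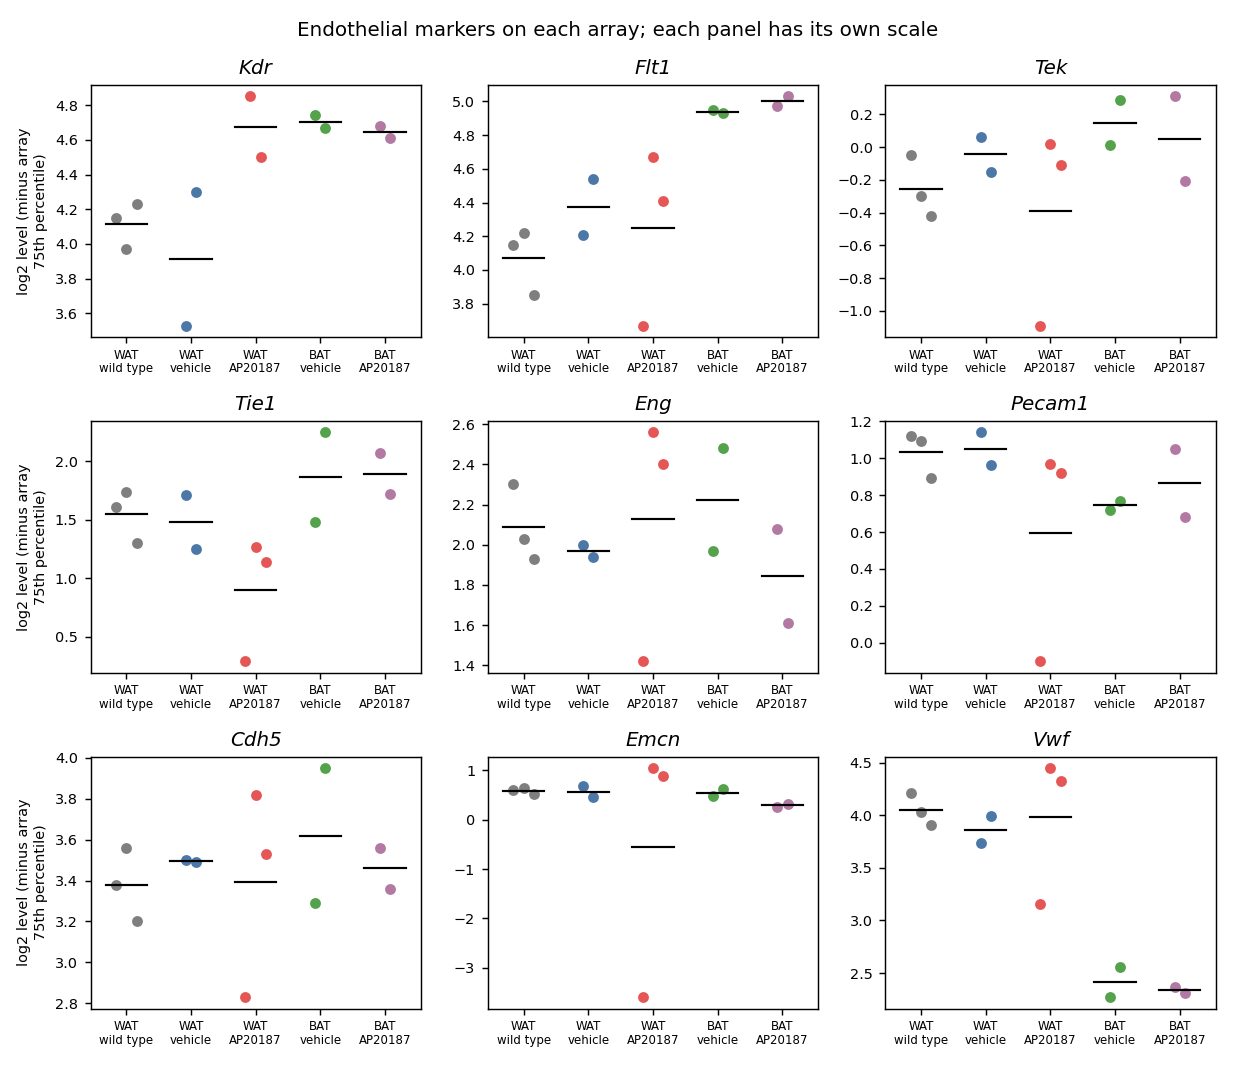
Log2 level (spot signal minus the array's 75th percentile) of the 9 endothelial markers on each of 12 arrays, with a panel and a scale per gene; points are arrays and lines are group means. Vwf lay at 2.27 to 2.56 on the 4 BAT arrays and at 3.16 to 4.45 on the 8 WAT arrays, and 1 WAT AP20187 array was the lowest WAT array for 8 markers.

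The first question was whether the endothelial transcripts differed in white fat 12 h after AP20187. None of the 9 did by the test: 0 of 9 were called against vehicle, while 2.24% of all features were, and 1 of the 9 (Kdr) had an unadjusted p under 0.05, as had 22.3% of all features. The median change of the members was -0.12 log2 and that of all features 0.15. Their spread came mostly from 1 array. In a bulk sample, fewer endothelial cells and less RNA per endothelial cell cannot be told apart.

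Among the VEGF receptors, Kdr measured 4.15, 3.97 and 4.23 in wild-type WAT, 3.53 and 4.3 with vehicle, and 4.85 and 4.5 on AP20187 arrays 2 and 3. Its spot on AP20187 array 1 read -3.03 log2 relative to the median of that spot over the WAT arrays. It was marked as an outlier by the scanner software and gave no value. Both remaining AP20187 arrays lay above all 5 vehicle and wild-type arrays. The difference from vehicle was 0.76 log2 (1.7-fold, SE 0.27, n = 2 and 2), with an adjusted p of 0.16 in limma's test. Its sign turned in the authors' value table (-0.46), from which spots marked as outliers were not dropped. Kdr has another probe, spotted 10 times, which had a value on every array: 3.36, 3.57 and 3.13 in wild-type WAT, 3.33 and 3.55 with vehicle, and 3.26, 4.23 and 3.74 with AP20187. By that probe array 1 lay within the range of the controls, arrays 2 and 3 lay above them, and the difference from vehicle was 0.3 log2 (SE 0.35, adjusted p = 0.623 by limma over all probes). On arrays 1 and 2, 2 of its 10 spots were marked as outliers and left out.

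**Figure D2:**
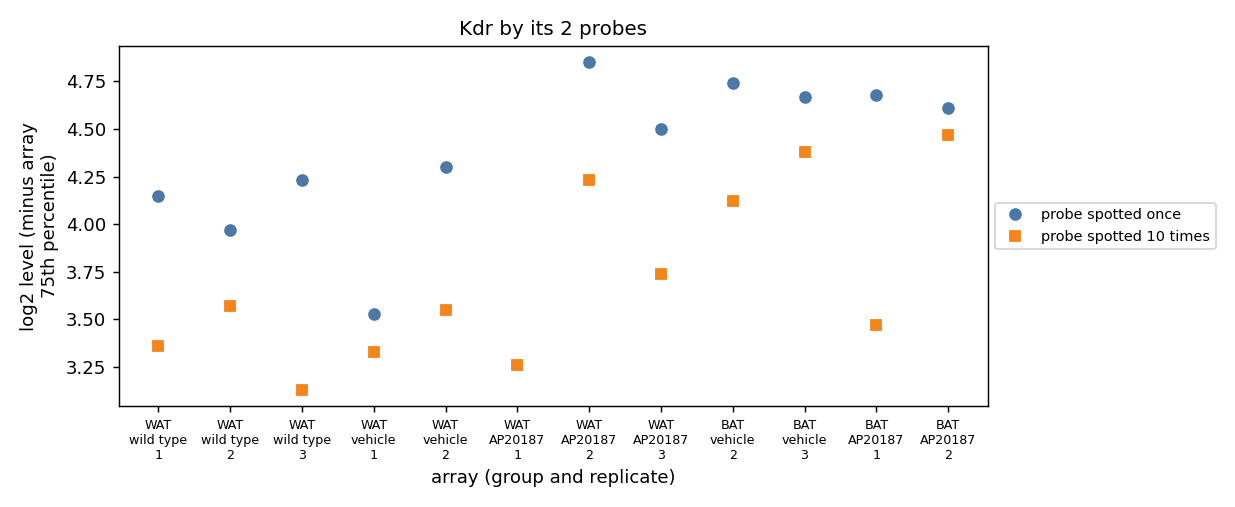
Log2 level of Kdr on each array by the probe spotted once (circles, no value on WAT AP20187 1) and by the probe spotted 10 times (squares). Both probes placed WAT AP20187 2 and 3 above the 5 vehicle and wild-type WAT arrays, and the probe spotted 10 times placed WAT AP20187 1 at 3.26, among them. In BAT the probe spotted 10 times placed AP20187 1 at 3.47 and the other 3 arrays at 4.12 to 4.47.

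Flt1, the decoy receptor, measured 4.15, 4.22 and 3.85 in wild-type WAT, 4.21 and 4.54 with vehicle, and 3.67, 4.67 and 4.41 with AP20187. The AP20187 arrays spanned the whole range of the controls, and the difference from vehicle was -0.12 log2 (SE 0.28, adjusted p = 0.814 by limma). Of the angiopoietin receptors, Tek measured -0.05, -0.3 and -0.42 in wild-type WAT, 0.06 and -0.15 with vehicle, and -1.09, 0.02 and -0.11 with AP20187. Its difference from vehicle was -0.35 log2 (SE 0.33). Tie1 measured 1.61, 1.74 and 1.3, then 1.71 and 1.25, then 0.29, 1.27 and 1.14 in the same order of groups. Its AP20187 array 3 lay below all 5 control arrays and array 2 just above the lowest of them, and the difference from vehicle was -0.58 log2 (SE 0.35, adjusted p = 0.36 by limma). Tek thus stayed among its controls on arrays 2 and 3, whereas Tie1 lay at their lower end.

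Eng, the co-receptor, measured 2.3, 2.03 and 1.93 in wild-type WAT, 2 and 1.94 with vehicle, and 1.42, 2.56 and 2.4 with AP20187, a difference from vehicle of 0.16 log2 (SE 0.34). The junction gene Pecam1 measured 1.12, 1.09 and 0.89, then 1.14 and 0.96, then -0.1, 0.97 and 0.92 (-0.45 log2 from vehicle, SE 0.31), and Cdh5 measured 3.38, 3.56 and 3.2, then 3.5 and 3.49, then 2.83, 3.82 and 3.53 (-0.1 log2, SE 0.31). For both, arrays 2 and 3 stayed within or just above the controls. Vwf measured 4.21, 4.03 and 3.91 in wild-type WAT, 3.74 and 3.99 with vehicle, and 3.16, 4.45 and 4.33 with AP20187 (0.12 log2, SE 0.35). Emcn measured 0.6, 0.64 and 0.51, then 0.67 and 0.45, then -3.59, 1.04 and 0.87 (-1.12 log2, SE 1.15). On array 1 the level of Emcn rests on 1 spot, which lay 4.31 log2 below the median of that spot over the WAT arrays and was not marked as an outlier. In the area around it 5.56% of 72 bright spots lay over 2 log2 units below their own medians, against 3.62% on that array as a whole.

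Array 1 moved nearly all members in 1 direction. Relative to the mean of wild-type WAT, all 8 members measured there were lower, by a median of -0.86 log2, and each lay below all 5 vehicle and wild-type arrays, as did 29.7% of all features. Flt1 was nearest to its wild-type mean, at -0.4, and apart from Emcn, at -4.18, the lowest was Tie1 at -1.26. Over the same 8 genes, the summed linear signal was 34.2 times the array's 75th percentile, against 48.9 to 74.8 on the other 7 WAT arrays and 56.1 to 66.6 on the BAT arrays. The part of the epididymal and macrophage values given above in this difference was not tested. On arrays 2 and 3 the medians were 0.44 and 0.28 log2 above the wild-type mean, and 4 members, Kdr, Emcn, Vwf and Eng, lay above all 5 control arrays on both, as did 37% of all features. None lay below all 5 on both, as 9.73% of all features did.

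**Figure D3:**
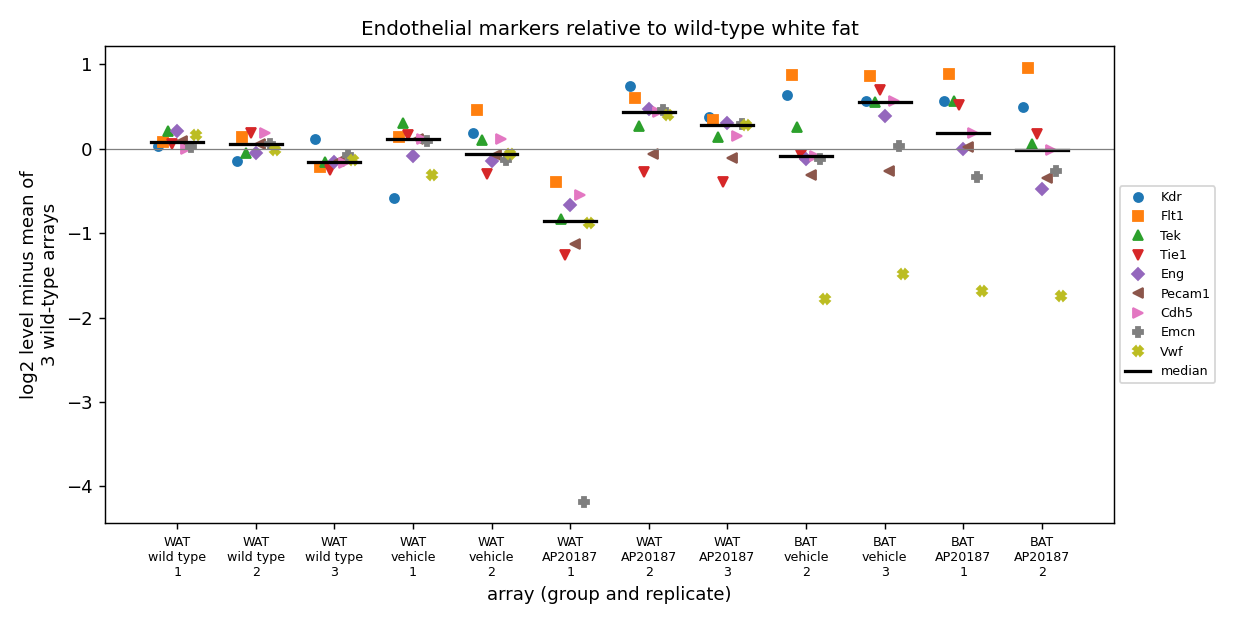
Log2 level of each endothelial marker minus its mean over the 3 wild-type WAT arrays, by array; symbols are genes and the black bar is their median. WAT AP20187 1 had a median of -0.86, with Emcn at -4.18, and on the 4 BAT arrays Vwf lay at -1.78 to -1.48 while Flt1 lay at 0.86 to 0.96.

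Without array 1, 0 of 9 members were called against vehicle and 9.24% of all features were. Their median was then 0.18 log2, beside 0.2 for all features, so the sign of the members' median turned. Vwf was then 0.52 log2 higher (SE 0.18, adjusted p = 0.0967 by limma), Eng 0.51 (SE 0.24, adjusted p = 0.191) and Emcn 0.4 (SE 0.15, adjusted p = 0.125). On slide 2, which held vehicle array 2 and all 3 AP20187 arrays, the members' median difference from that vehicle array was -0.9 on array 1, 0.33 on array 2 and 0.04 on array 3. All 9 were positive on array 2 and 6 of 9 on array 3, and the share of all features positive in these differences was not counted.

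Against untreated wild type the same AP20187 arrays gave the same count. Of the 9 members 0 were called, while 8.87% of all features were, and 0 had an unadjusted p under 0.05, as 28.6% of all features had. The members' median was -0.07 log2 beside 0.16 for all features. Tie1 differed by -0.65 log2 (SE 0.31, adjusted p = 0.211 by limma), Pecam1 by -0.43 (SE 0.28, adjusted p = 0.332) and Kdr by 0.56 (SE 0.25, n = 2 and 3, adjusted p = 0.18). These values share their AP20187 arrays with the comparison against vehicle. All wild-type arrays lay on slide 1 and all WAT AP20187 arrays on slide 2, so group and slide cannot be told apart here. Tie1, Pecam1 and Kdr were called with slide as a random block, a setting in which the estimated correlation within slides was -0.25.

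Vehicle-treated transgenic WAT and untreated wild-type WAT were compared to see what injection and transgene did together. Of the 9 members 0 were called, as against 0.0245% of all features, and 0 had an unadjusted p under 0.05, as 5.02% of all features had. Differences ran from -0.2 log2 for Kdr to 0.3 log2 for Flt1. On slide 1, which held vehicle array 1 and the wild-type arrays, Kdr differed by -0.59 log2 and Tek by 0.31, and the median over members was 0.11.

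In brown fat no member passed the test after AP20187. Of the 9, 0 were called, while 0.00818% of all features were, and 0 had an unadjusted p under 0.05, as 7.37% of all features had. Their median was -0.08 log2, beside -0.04. By the probe spotted once Kdr measured 4.74 and 4.67 with vehicle and 4.68 and 4.61 with AP20187. By the probe spotted 10 times it measured 4.12 and 4.38, then 3.47 and 4.47 (-0.28 log2, SE 0.38, adjusted p = 0.993 by limma over all probes), so that probe placed AP20187 array 1 below both vehicle arrays and array 2 above both. Flt1 measured 4.95 and 4.93 and then 4.97 and 5.03. Vwf measured 2.27 and 2.56 with vehicle and 2.37 and 2.31 with AP20187. The difference furthest from 0 was that of Eng, which measured 1.97 and 2.48 with vehicle and 2.08 and 1.61 with AP20187 (-0.38 log2, SE 0.37, adjusted p = 0.937 by limma). Pecam1 (0.72 and 0.77, then 1.05 and 0.68), Tek (0.01 and 0.29, then 0.31 and -0.21), Tie1 (1.48 and 2.25, then 2.07 and 1.72) and Cdh5 (3.29 and 3.95, then 3.56 and 3.36) overlapped between the groups. Emcn, at 0.47 and 0.62 and then 0.26 and 0.31, did not overlap, nor did Flt1, as 37.3% of all features did not. Emcn differed by -0.26 log2 (SE 1.26, which carries the spread of Emcn in WAT). BAT vehicle array 3 was the higher of its group for 7 of the 9 members, and its skeletal muscle genes averaged 5.42 against 1.18 on vehicle array 2, with 4.64 and 3.76 on the AP20187 arrays. The part of this in the members' values was not tested.

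The responses of both depots were then compared directly. For 0 of 9 members did the response in BAT minus that in WAT pass the threshold, and 0 of all features did (0%), with an unadjusted p under 0.05 for 0 members and 16.5% of all features. Kdr had the smallest p among them, at -0.83 log2 (SE 0.38, adjusted p = 0.334 by limma): the measured WAT AP20187 arrays were 0.59 to 0.94 above the vehicle mean and the BAT arrays -0.1 to -0.03. By the probe spotted 10 times the difference was -0.58 log2 (SE 0.52, adjusted p = 0.645 over all probes), and the BAT AP20187 arrays lay on both sides of the vehicle arrays.

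The depots themselves were compared in vehicle-treated mice. Vwf was called lower in BAT than in WAT and was the only 1 of the 9 called, which is a smaller share than the 23.4% of all features called, 14.3% higher and 9.17% lower. Kdr and Flt1 measured higher in BAT without passing the threshold. In the authors' value table Kdr differed by 0 and Flt1 by -0.23 log2, while the median of all features there was -0.64. Relative to the median of all features, Kdr lay at 0.45 to 0.69 and Flt1 at 0.24 to 0.46 over the 6 scalings. An unadjusted p under 0.05 was found for 2 members, Vwf and Kdr, and for 36.5% of all features. All BAT arrays lay on 1 slide of their own, so tissue and slide cannot be told apart in any value of this comparison. The median over members was 0.2 log2, beside 0.11 for all features.

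Vwf lay at 2.27 and 2.56 on the BAT vehicle arrays and at 3.74 and 3.99 on the WAT vehicle arrays. The difference was -1.45 log2 (SE 0.38, n = 2 and 2), which is 2.73-fold lower in BAT, with an adjusted p of 0.0259 by limma. All 4 BAT arrays, vehicle and AP20187, lay below all 8 WAT arrays, and so did 11.2% of all features. Vwf kept its call under all 6 scalings compared, at -2.24 to -1.28 log2, and averaged over vehicle and AP20187 arrays it was -1.55 log2 (adjusted p = 0.00184). Without WAT AP20187 1, which enters only through the spread, it was -1.45 log2 (SE 0.18, adjusted p = 8.38e-04 by limma). The call was lost when any 1 of the 4 vehicle arrays was left out: -1.58 and -1.32 log2 without WAT vehicle 1 or 2 (adjusted p = 0.0782 and 0.121), and -1.3 and -1.6 without BAT vehicle 2 or 3 (adjusted p = 0.132 and 0.056). Counting the 13th array as BAT vehicle also ended the call, at -0.83 log2 (adjusted p = 0.47 by limma). Counting it as WAT vehicle kept the call, at -1.59 log2 (adjusted p = 0.00677 by limma). The Ucp1 level of that array, -4.57, lay within the WAT range.

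Kdr was 0.8 log2 higher in BAT vehicle arrays than in WAT vehicle arrays (1.74-fold, SE 0.27, adjusted p = 0.0693 by limma), and its probe spotted 10 times gave 0.81 (SE 0.38, adjusted p = 0.171 over all probes). Kdr was called without WAT vehicle 2 (1.18 log2, adjusted p = 0.0243) and without WAT AP20187 1 (0.8, adjusted p = 0.0457), while without WAT vehicle 1 it was 0.41 (adjusted p = 0.336). Flt1 lay at 4.93 to 5.03 on the 4 BAT arrays and at 3.67 to 4.67 on the 8 WAT arrays, without overlap, as 14% of all features lay above. Its vehicle groups differed by 0.56 log2 (SE 0.31, adjusted p = 0.223), and with vehicle and AP20187 averaged in each depot by 0.65 (adjusted p = 0.035). Without WAT AP20187 1 the vehicle groups of Flt1 differed by 0.56 with an SE of 0.19 (adjusted p = 0.054 by limma). Tie1 (0.38 log2, SE 0.38), Eng (0.26, SE 0.37), Tek (0.2, SE 0.36), Cdh5 (0.13, SE 0.33) and Pecam1 (-0.3, SE 0.34) had adjusted p-values from 0.524 to 0.829. Emcn differed by -0.02 (SE 1.26).

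**Figure D4:**
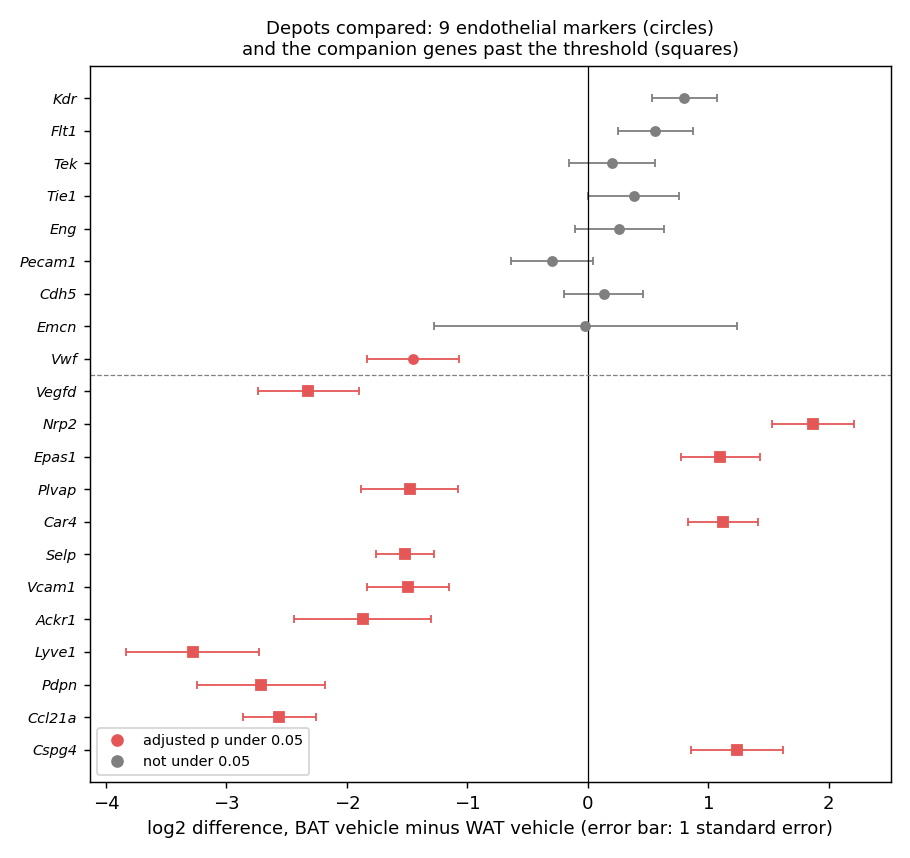
Log2 difference between BAT vehicle and WAT vehicle arrays, with 1 standard error, for the 9 endothelial markers (circles) and for the companion genes with an adjusted p under 0.05 (squares); red marks an adjusted p under 0.05. Vwf lay at -1.45 and Kdr at 0.8 among the markers, and the lymphatic genes Lyve1, Pdpn and Ccl21a lay at -3.28 to -2.56.

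By level, each member had its own order of groups. Vwf was highest in wild-type WAT (4.05 ± 0.15, SD, n = 3), then WAT with AP20187 (3.98 ± 0.71, n = 3) and WAT with vehicle (3.86 ± 0.18, n = 2), and the BAT groups followed at 2.41 ± 0.21 and 2.34 ± 0.05 (n = 2 each). The 3 WAT groups overlapped, as did both BAT groups, and a gap separated WAT from BAT. Flt1 was highest in BAT with AP20187 (5 ± 0.04) and BAT with vehicle (4.94 ± 0.01), and the WAT groups followed at 4.37 ± 0.23 with vehicle, 4.25 ± 0.52 with AP20187 and 4.07 ± 0.2 in wild type, overlapping each other. For Kdr, by the probe spotted once, BAT with vehicle (4.71 ± 0.05), WAT with AP20187 (4.68 ± 0.25, n = 2) and BAT with AP20187 (4.64 ± 0.05) overlapped, and wild-type WAT (4.12 ± 0.14) and WAT with vehicle (3.91 ± 0.54) lay below them. Cdh5, Eng, Pecam1, Tek and Tie1 had overlapping neighbours throughout their order, with group means from 3.38 to 3.62 for Cdh5, 1.85 to 2.23 for Eng, 0.6 to 1.05 for Pecam1, -0.39 to 0.15 for Tek and 0.9 to 1.9 for Tie1. For Emcn wild-type WAT (0.59 ± 0.07), WAT vehicle (0.56 ± 0.16) and BAT vehicle (0.54 ± 0.1) overlapped, BAT with AP20187 (0.28 ± 0.04) lay below them, and WAT with AP20187 (-0.56 ± 2.63) spanned all of these.

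Genes of the same pathways were followed in 7 companion lists of ligands and co-receptors, endothelial transcription factors, other endothelial genes, and arterial, venous, lymphatic and mural genes (mural cells wrap the vessel). In the comparisons of AP20187, vehicle and wild type within a depot, 0 of the 15, 14, 24, 10, 4, 3 and 10 genes tested in these lists were called. The shares of all features called in WAT were 2.24% for AP20187 against vehicle, 8.87% against wild type and 0.0245% for vehicle against wild type. In BAT the share was 0.00818%. Against vehicle in WAT the smallest p-values in the lists were those of Angpt1 (-0.72 log2, SE 0.45, adjusted p = 0.37 by limma), an angiopoietin that activates Tek, Sox17 (-0.66, SE 0.29, adjusted p = 0.227), an arterial transcription factor, and S1pr1 (-0.93, SE 0.39, adjusted p = 0.208), a sphingosine receptor that steadies vessels. S1pr1 measured -0.16, 1.14 and 1.14 with AP20187 and 1.49 to 1.88 on the 5 control arrays, without overlap. Of all features, 29.7% lay below all 5 control arrays on AP20187 array 1, and 9.73% did on both arrays 2 and 3. The mural gene Rgs5, a regulator of G protein signalling, differed by -0.88 log2 (SE 0.36, adjusted p = 0.201), while 8 of the 10 mural genes were positive, with a median of 0.21.

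Of the 80 companion genes tested, 12 had a reading on a WAT AP20187 array that lay over 2 log2 units below the gene's median over the 8 WAT arrays, 6 on array 1, 5 on array 2 and 1 on array 3, and 0 had one on the 5 control arrays. On array 1 these were Angpt2, Sox7, Egfl7, Ecscr, Icam2 and Jag1, on array 2 Nrp1, Flt4, Elk3, Aqp1 and Dll4, and on array 3 Angpt4. The reading of Emcn on array 1 was of this size too. Of all bright spots, 3.62%, 3.99% and 1.56% lay over 2 log2 units below their own medians on AP20187 arrays 1, 2 and 3. On the 5 control arrays 0.00676% to 0.142% did. Low readings were thus not particular to the companion genes, and the share of all features with such a reading was not counted. On array 2 Aqp1, the water channel, measured -0.6 against 4.72 and 5.41 on arrays 1 and 3, and Nrp1, a VEGF co-receptor, measured -5.75 against 0.16 and 1. Dll4, a Notch ligand of arterial cells, measured -5.77 there against -1.96 and -0.95. Without array 1, 1 of 24 other endothelial genes was called against vehicle, where 9.24% of all features were called. It was Nos3, the endothelial nitric oxide synthase, at 0.97 log2 (SE 0.25, adjusted p = 0.0497 by limma). Against wild type, without that array, Nos3 (1.28 log2), the Tek ligand Angpt2 (0.75), the TGF-beta receptor Tgfbr2 (0.77), the hypoxia factor Epas1 (0.71) and the pericyte proteoglycan Cspg4 (0.6) were called higher, with adjusted p-values from 0.0165 to 0.0473 by limma, where 21.8% of all features were called. Wild-type and WAT AP20187 arrays lay on different slides, so group and slide cannot be told apart in these calls.

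Between the depots 12 of the 80 companion genes tested were called, or 15%, beside 23.4% of all features. Of ligands and co-receptors, 1 of 15 was called higher and 1 lower in BAT. Vegfd, a ligand of lymphatic and vascular VEGF receptors, measured 0.59 and 1.28 with vehicle in BAT and 3.27 and 3.24 in WAT (4.99-fold lower, SE 0.42 log2, adjusted p = 0.005 by limma). Nrp2, a VEGF co-receptor, measured 4.68 and 5.42 in BAT and 3.08 and 3.27 in WAT (3.67-fold higher, SE 0.34, adjusted p = 0.00499). Vegfa, the main ligand of Kdr and Flt1, was 0.46 log2 higher (SE 0.3, adjusted p = 0.318) and Angpt1 0.44 (SE 0.49, adjusted p = 0.571). Of 14 transcription factors, 1 was called, Epas1, at 8.09 and 7.47 in BAT and 6.63 and 6.74 in WAT (2.14-fold higher, SE 0.33, adjusted p = 0.0427). Its difference fell from 1.1 to 0.28 log2 with quantile scaling (adjusted p = 0.435), and it was called in 17 of 32 alternatives. Sox17 (-0.12 log2, SE 0.32) and Erg (-0.27, SE 0.45), both factors of the endothelial programme, were not called.

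Of 24 other endothelial genes, 3 were called lower and 1 higher in BAT. Lower were Selp, the adhesion receptor stored in the same granules as Vwf (-1.52 log2, 2.86-fold, SE 0.24, adjusted p = 0.00307), Vcam1, an adhesion molecule (-1.49, SE 0.34, adjusted p = 0.0148), and Plvap, a protein of capillary fenestrae (-1.48, SE 0.4, adjusted p = 0.0265). Selp measured -2.75 and -2.21 in BAT with vehicle and -0.87 and -1.06 in WAT with vehicle. Higher was Car4, a carbonic anhydrase of capillary surfaces (1.12, SE 0.29, adjusted p = 0.0236). Of 4 venous genes, 1 was lower, Ackr1, a chemokine-binding receptor of venules (-1.87, SE 0.57, adjusted p = 0.0443). Of 10 arterial genes 0 were called, with Gja5, a gap junction protein, at -1.16 (SE 0.38, adjusted p = 0.059). Of 10 mural genes 1 was higher, Cspg4 (1.24, SE 0.38, adjusted p = 0.0473). The medians of these lists ran from -0.34 for venous to 0.41 for mural genes, against 0.11 for all features.

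All 3 lymphatic genes tested were called lower in BAT: Lyve1, a hyaluronan receptor (-3.28 log2, 9.69-fold, SE 0.55, adjusted p = 0.00353), Pdpn, podoplanin (-2.71, SE 0.53, adjusted p = 0.00723), and Ccl21a, a chemokine (-2.56, SE 0.3, adjusted p = 8.71e-04). Lyve1 lay at -1.04 and -0.7 in BAT with vehicle and at 2.27 and 2.54 in WAT with vehicle. Prox1 and Reln, the other 2 genes of this list, did not pass the filter, nor did Gdf2, Sele and Hey2 of the other lists. Beside these values, 5 of 5 mesothelial genes (median -7.59 log2), 6 of 6 fibroblast genes (median -1.55) and 5 of 7 macrophage genes (median -2.06) were called lower in BAT, and 6 of 7 skeletal muscle genes were called higher (median 7.16). Lyve1 and Pdpn are also known from macrophages and mesothelium. The part of these cell types in the lymphatic and endothelial values was not tested. Of the 12 companion genes called, 6 were called again without WAT vehicle 1, without WAT vehicle 2 and without BAT vehicle 2, each time Vegfd, Nrp2, Selp, Lyve1, Pdpn and Ccl21a. Without BAT vehicle 3 they were 9, with Epas1, Plvap and Vcam1 added, and Car4, Ackr1 and Cspg4 were called in none of these. With the 13th array as BAT vehicle 0 of the 12 were called (adjusted p from 0.382 to 0.435 by limma). With it as WAT vehicle all 12 were called (adjusted p from 1.76e-04 to 0.0318 by limma). Cspg4 was called in 16 of 32 alternatives and Car4 and Ackr1 in 22 each.

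The genes whose pattern was most like that of the members were found by correlation with the mean of the members, each centred on its own mean, over named genes with a value on every array used. Over 12 arrays these were Fcgr4, Icam2, Fbxo9, Tap2, Ecscr and Mcm3, with r from 0.96 to 0.97. Icam2 and Ecscr are endothelial genes of the companion lists. On WAT AP20187 array 1 Icam2 measured -3.96, against 3.66 to 4.64 on the other 11 arrays, and Ecscr -6.39, against 1.24 to 2.79, so the 12-array likeness follows that array. Over the 11 arrays without it the 6 were Ppp1r9b, Prex1, Oaz2, Tgm2, Wnk1 and Akt1, with r from 0.89 to 0.96, and no gene was in both sets. The arrays share their slides and scaling, and no p is given. Among the members the 36 pairs had a median r of 0.54 over 12 arrays and 0.25 without array 1, when 13 of the 36 were negative.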

How the data were processed

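The members and the gene lists were chosen with earlier results of these data known. Each array carried Cy3-labelled copies of the total RNA of 1 sample (Agilent, 1 colour). Per the file headers, the deposited intensity of each spot came from Feature Extraction 10.7.1.1, with background subtraction and detrending inside the array and no scaling between arrays recorded. The authors' value table holds the same intensity, within 0.1% for 99% or more of its values on a linear scale, with part of its cells blank. How cells were chosen to be blank is not given in the sources used here. Spots marked as outliers were dropped, spots of a probe averaged, and log2 of the deposited signal minus the array's 75th percentile taken. Probes were named through RefSeq (GRCm38.p6). Of 26056 named and 29625 unnamed probes, 32616 passed the filter, which asked that all arrays of some group have the probe well above background. The probe with the highest mean per gene gave 24459 features.

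All 12 arrays of the 5 groups entered 1 limma 3.58.1 fit (R 4.3.3, lmFit and eBayes, group means, Benjamini-Hochberg adjustment, threshold 0.05), tested on simulated data. Wild type 1 to 3 and WAT vehicle 1 lay on slide 1, WAT vehicle 2 and the WAT AP20187 arrays on slide 2, and BAT on slide 3. All members are named. Of each companion list the rule gave up to 4 called genes, or the 2 smallest p-values where none was called. Not all genes given by that rule are named in the text. Outside that rule, Vegfa, Angpt1, Sox17 and Erg in the depot comparison, and genes called without WAT AP20187 1, and those with single low readings, were chosen after their values were seen. The number of arrays limits the precision. Alternatives were scalings, background correction, filters, probe choice, slide and replicate blocks, the contradictory array and each array left out. Weak areas, the Kdr probe and other averages of the depots were added after the data were seen.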

Additional observations from a re-analysis of the deposited data

Results flagged for a closer look

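For Kdr, by the probe spotted once, the measured WAT AP20187 arrays lay above the WAT vehicle mean and both BAT AP20187 arrays lay below the BAT vehicle mean. The response in BAT minus that in WAT was -0.83 log2 (SE 0.38), with an adjusted p of 0.334 in limma's test of this difference, so it was not called, and 1 WAT array had no value. By the probe spotted 10 times the BAT AP20187 arrays measured 3.47 and 4.47, on either side of the vehicle arrays at 4.12 and 4.38, and the difference of the responses was -0.58 log2 (SE 0.52, adjusted p = 0.645 over all probes).

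On the array with contradictory labels, which is outside all comparisons, 3 members lay above every vehicle and wild-type array. Pecam1 measured 1.33 there, Emcn 0.83 and Vwf 4.28. The highest Pecam1 value of the 12 assigned arrays was 1.14, while Emcn and Vwf reached 1.04 and 4.45 on WAT AP20187 arrays.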

How the results depend on the processing

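Of 33 alternatives, 28 were planned and 5 were added after the data were seen. They gave 1638 values of single members, of which 22 changed a call and 0 reversed a called direction, and 139 values without a call changed sign. In WAT after AP20187, 1 member was called against vehicle, and 1 against wild type, with the median as the scaling (Kdr, 1.11 and 0.88 log2), and 3 against wild type with slide as a random block. No alternative called a member for vehicle against wild type, for AP20187 in BAT or for the difference of the responses. Between the depots 2 members were called with the median scaling, limma-trend, slide as a random block, the contradictory array in WAT vehicle, both epididymal arrays left out, weak areas left out, wild type added to WAT vehicle (each Vwf and Kdr), and depots averaged over vehicle and AP20187 (Vwf and Flt1). The count was 3 when that average left out WAT AP20187 1 (Emcn added), 0 with the contradictory array in BAT vehicle (Vwf -0.83, adjusted p = 0.47), and 0 to 2 with 1 array left out. Of the 32 alternatives of this comparison, 9 called Kdr and 27 called Vwf. Same-numbered arrays of different groups had correlated deviations in 1 of 19 pairs at over 0.1 (-0.22 to 0.11). Deviations from means of 2 or 3 arrays cannot tell whether same-numbered arrays share an animal, so pairing remains unknown. With the replicate block Vwf was -1.64 between depots (adjusted p = 0.0455), the count of members stayed 1, and 0 features were called for WAT AP20187 against vehicle in place of 548. Higher and lower calls numbered 428 and 120 there, but 7 and 220 scaled on probes detected on all arrays, and 4497 and 202 with the median. Between depots they numbered 3491 and 2243, but 491 and 3184 in the authors' value table and 2682 and 3395 on probes detected on all arrays. Features called ran from 0 to 13481 for AP20187 against wild type (2169), 0 to 56 for vehicle against wild type (6), 0 to 22 in BAT (2), 0 to 11152 between depots (5734) and 0 to 423 for the difference of responses (0). For WAT AP20187 against vehicle the count ran from 0 to 5512 over the alternatives, and the median of all features from -0.16 to 0.47 over the scalings, with Kdr at -0.46 to 1.11 over them. With slide as a fixed block the depots could not be compared. Arrays with few spots above background limit dim members most.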

Other observations

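On the array whose title and tissue label say BAT and whose source name says WAT, Ucp1 measured -4.57, within the WAT range of -7.23 to -3.41 and far from the BAT range of 9.87 to 10.63. The members measured 4.12 for Kdr, 4.55 for Flt1, 0.22 for Tek, 1.69 for Tie1, 2.15 for Eng, 1.33 for Pecam1, 3.79 for Cdh5, 0.83 for Emcn and 4.28 for Vwf. Vwf and Flt1, whose values did not overlap between the depots, lay within their WAT ranges (3.16 to 4.45 and 3.67 to 4.67).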
